A study of Mus musculus with 24 samples.

Results

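Immediate early response genes are transcribed within minutes of a stimulus without new protein synthesis, and their mRNAs decay rapidly. Growth factors, cytokines, feeding, mechanical stretch and the interruption of blood flow act through MAP kinases on transcription factors already bound at their promoters. In the colon they are known to answer luminal and growth factor signals in the epithelium, and in the liver to rise in the priming phase of regeneration and after tissue is handled or deprived of oxygen.

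The 10 genes described here were chosen by name, and every array probe carrying one of those names was taken. They comprised the AP-1 subunits Fos, Fosb, Jun and Junb, the zinc finger transcription factors Egr1 and Egr2, the response genes Ier2 and Ier3, the stress-induced factor Atf3 and the MAP kinase phosphatase Dusp1. These 10 of 27962 gene names were covered by 12 of the 41174 probes on the array. Ier2 and Junb had a pair of probes each, and the brighter probe stood for the gene.

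Whole colon and whole liver were taken from the same 12 female C57BL/6 mice at 12 weeks of age. Every dam ate the HF-low diet, high in fat and low in selenium and folate, before mating and through pregnancy and lactation. From about 28 days of age, 6 offspring stayed on that diet (HF-low-low) and 6 changed to a high-fat diet adequate in both nutrients (HF-low-suf). Each of the 24 arrays compared Cy3-labelled RNA of 1 tissue of 1 mouse with a Cy5-labelled reference pool, without dye swaps, and 1 array of each group lay on each of 6 slides. Before collection the mice were fasted and re-fed, then killed with CO2 and cervical dislocation, after which tissue was rinsed in cold saline and held in RNAlater.

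The labels describe the pool as colon and liver, and the study's methods as intestinal and liver RNA of all mice. The mean of 8 skeletal muscle markers lay below the pool on all 24 arrays, at -5.41 to -4.62 in the colon and -5.10 to -2.86 in the liver, although a mix of these tissues would not be expected to lie far above both. The content of the pool is therefore not settled here.

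Values are log2 ratios of Cy3 to Cy5 after loess normalisation, so a tissue's value is relative to the pool and says nothing about the level of another probe. Hepatocyte markers were higher in the liver for 5 of 5 genes and colon epithelium markers were lower there for 7 of 7, which placed the mouse RNA in Cy3. A positive diet difference stands for more mRNA in the HF-low-suf group, and this direction, taken from the dyes, is opposite to the one the study gives for its diet comparison. In whole tissue, fewer cells of a type and less mRNA per cell cannot be told apart. Cy3 signals had a median of 3.78 to 7.20 times background over the arrays, and the software marked 26.1% to 71.9% of spots as well above background. Colon HF-low-suf replicate 5 and liver HF-low-suf replicate 4 had a bright Cy5 signal, at 18.1 and 12.7 times the background against 5.41 to 7.54 times on the other arrays. Replicates 1 to 3 of each group were scanned on a first day and replicates 4 to 6 on another.

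Promoter sequences are shown for 4 genes whose values moved together in the colon or differed between the tissues, because these windows hold the TGACG core of the cAMP response element, the site of CREB and ATF factors. Windows of 300 bases, 250 before and 50 after the transcription start, were taken from RefSeq entries of build GRCm38.p6 for 8 of the 10 genes. Egr1 and Ier2 were not among them, and the counts for the members leave both out. Their absence does not show that RefSeq lacks a promoter for either gene. TGACG or its complement CGTCA occurred in at least 1 window of 6 of these 8 genes, namely Fos, Fosb, Junb, Egr2, Atf3 and Dusp1, against 23.1% of the 27025 genes in the RefSeq table counted in the same way. By window it was 8 of 12, against 20.8% of 32851 windows, and Egr2 had 5 of the 12 windows, which overlap in part, with the core in 3. The whole palindrome TGACGTCA, which contains the core, occurred in Dusp1 and in 1.79% of all windows. Capitals mark the core. Fos is shown from chr12:85473640-85473939 on the plus strand, Junb from chr8:84978699-84978998 on the minus strand, Atf3 from chr1:191183284-191183583 on the minus strand and Dusp1 from chr17:26508423-26508722 on the minus strand.
Fos: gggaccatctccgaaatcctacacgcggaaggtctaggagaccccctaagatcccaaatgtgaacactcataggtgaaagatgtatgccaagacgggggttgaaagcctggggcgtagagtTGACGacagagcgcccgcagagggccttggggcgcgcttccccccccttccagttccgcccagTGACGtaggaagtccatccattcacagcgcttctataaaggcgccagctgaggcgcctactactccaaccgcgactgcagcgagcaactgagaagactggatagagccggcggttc
Junb: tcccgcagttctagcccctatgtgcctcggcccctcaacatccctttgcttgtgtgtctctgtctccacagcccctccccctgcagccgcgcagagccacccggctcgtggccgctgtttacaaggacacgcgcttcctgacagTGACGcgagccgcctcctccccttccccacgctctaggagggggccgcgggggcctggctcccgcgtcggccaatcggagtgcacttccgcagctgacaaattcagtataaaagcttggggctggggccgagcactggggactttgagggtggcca
Atf3: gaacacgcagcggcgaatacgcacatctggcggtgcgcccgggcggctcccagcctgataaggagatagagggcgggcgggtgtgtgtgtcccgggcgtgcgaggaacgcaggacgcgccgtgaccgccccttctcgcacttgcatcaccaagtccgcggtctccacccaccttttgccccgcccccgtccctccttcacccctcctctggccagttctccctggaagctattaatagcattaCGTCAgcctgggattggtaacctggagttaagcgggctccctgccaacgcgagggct
Dusp1: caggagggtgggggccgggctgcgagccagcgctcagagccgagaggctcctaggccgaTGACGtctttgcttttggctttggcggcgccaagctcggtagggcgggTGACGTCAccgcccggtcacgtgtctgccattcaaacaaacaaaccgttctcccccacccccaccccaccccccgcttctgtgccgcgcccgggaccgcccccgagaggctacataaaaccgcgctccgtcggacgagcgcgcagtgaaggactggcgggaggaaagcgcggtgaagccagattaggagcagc
Fos and Junb also held the letters TATAAA in their windows on the strand shown, as did 8.32% of all windows. Neither AP-1 sequence, TGAGTCA or TGACTCA on either strand, was found in the windows of the 8 genes, against 5.2% of all windows. The CArG box, which serum response factor binds, was matched in 4 of the 5 Egr2 windows, some of which hold the same site. It was matched in 1.63% of all windows. By gene it was matched in Egr2 alone of the 8, against 1.81% of the 27025 genes. A match in these letters is a description of the window and not a site shown to be bound.

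Detection differed between the genes and set what could be compared. Junb, Ier2 and Dusp1 were well above background on all 12 colon and all 12 liver arrays. Jun, Egr1 and Atf3 were well above background on all 12 colon arrays and on 10, 9 and 10 liver arrays. Fos was well above background on 11 colon arrays and on none of the 12 liver arrays, and Ier3 on 12 colon arrays and 1 liver array. Fosb (2 colon and 4 liver arrays) and Egr2 (3 colon and 2 liver arrays) were dim in both tissues. The plot of values by array marks these arrays with open points.

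**Figure D1:**
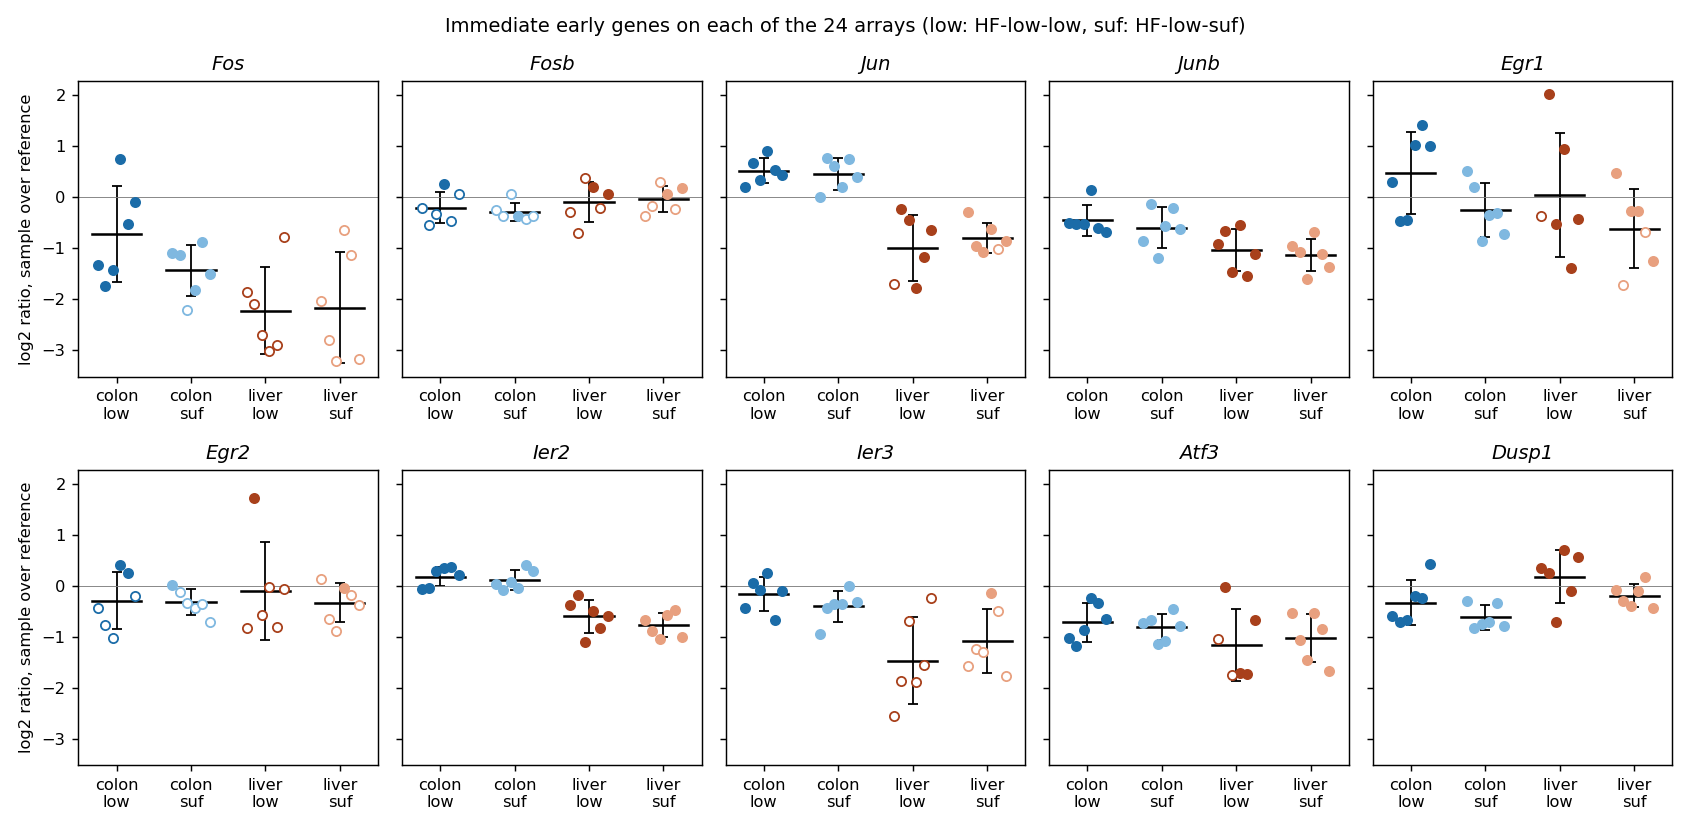
Log2 ratio of Cy3 (mouse) to Cy5 (pool) for the brighter probe of each of the 10 genes, 1 point per array, with the mean and SD of each group of 6 mice. Filled points were well above background in Cy3 and open points were not. Jun and Ier2 of the colon lie above all liver values, and the Fos points of the liver are all open.

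Between the tissues, 6 of the 10 genes differed. Jun, Junb, Fos, Ier2 and Ier3 were lower in the liver and Dusp1 was higher, at an adjusted P below 0.05 in limma with the mouse as a random block and Benjamini-Hochberg adjustment. Among all 41174 probes 19% were lower in the liver and 19.4% were higher. Of the 17020 probes that were well above background on at least 12 of the 24 arrays 37.2% were lower and 35.9% higher, 73% in all. Of the 7 members among these, 5 were called, 4 lower and 1 higher, a share near that background.

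Jun, an AP-1 subunit that partners Fos proteins and also binds DNA as a homodimer, was lower in the liver. Its probe lies on chromosome 4 from 94441779 to 94441838 of mouse build mm7, as do the other positions given for probes. In the colon Jun had a lowest, median and highest log2 ratio of 0.21, 0.48 and 0.90 in HF-low-low mice and 0.01, 0.50 and 0.77 in HF-low-suf mice. For liver RNA these were -1.79, -0.90 and -0.23 in HF-low-low mice and -1.08, -0.91 and -0.30 in HF-low-suf mice. The tissues did not overlap for Jun, and all 12 mice had less in the liver. The difference, liver minus colon, was -1.39 on the log2 scale (SE 0.15, n = 12 mice, adjusted P = 1.63e-08 in limma), a 2.61-fold difference. An exact sign-flip permutation test over the 12 mice, two-sided, gave P = 0.000488 for Jun, the smallest it can give.

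Junb, an AP-1 subunit that often restrains Jun-driven transcription, was bright in both tissues. The brighter probe, on chromosome 8 from 83563059 to 83563118, ranged from -1.19 to 0.14 in the colon (median -0.55) and from -1.60 to -0.54 in the liver (median -1.09). The ranges overlapped, yet Junb was lower in the liver of 12 of 12 mice. The difference was -0.56 (SE 0.13, adjusted P = 0.000721 in limma), or 1.48-fold. The other Junb probe, which overlaps the first by sequence position from 83563097 to 83563156, gave -1.30 (SE 0.19, adjusted P = 3.10e-06 in limma), so the pair of probes gave the same direction and unequal sizes.

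Fos, the subunit that must pair with a Jun protein to bind DNA, could be bounded only. The Fos probe lies on chromosome 12 from 83478431 to 83478490 and was spotted 10 times on each array. In the colon Fos ranged from -1.74 to 0.74 in HF-low-low mice (median -0.92) and from -2.20 to -0.87 in HF-low-suf mice (median -1.32). Because no liver array was well above background, the colon level was at least 1.81-fold the liver level, from mean log2 Cy3 signals of 9.57 in the colon and a floor of 8.72 in the liver, where the measured mean was 8.52. Within the diets the bound was 2.40-fold in HF-low-low mice and 1.36-fold in HF-low-suf mice. The adjusted P of the fitted difference was 0.00338 in limma, and 11 of 12 mice had less in the liver (exact P = 0.00684). The SD of repeated Fos spots had a median of 0.045 in the colon, where the SD between arrays was 0.81, and of 0.16 in the liver, where the SD between arrays was 0.93. It reached 0.57 in liver HF-low-suf replicate 2 and 0.39 in liver HF-low-low replicate 3. Fosb, a Fos relative, was lower in the liver of 4 mice and higher in 8, with a difference of 0.18 (SE 0.11, adjusted P = 0.224 in limma, exact sign-flip P = 0.0430).

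Ier2, a small nuclear protein of uncertain function, was lower in the liver. Its values ran from -0.07 to 0.42 in the colon (median 0.14) and from -1.10 to -0.19 in the liver (median -0.64), and the tissues did not overlap. The Ier2 difference was -0.84 (SE 0.10, adjusted P = 6.86e-08 in limma), or 1.79-fold, in the same direction in 12 of 12 mice. The dimmer Ier2 probe, well above background on 6 of 12 arrays of each tissue, gave 0.27 (SE 0.36, adjusted P = 0.632 in limma). Averaging both probes gave -0.28 with an adjusted P of 0.357 in limma. Ier3, a modulator of cell death and of ERK and NF-kappaB signals, ranged from -0.95 to 0.26 in the colon (median -0.34) and from -2.56 to -0.14 in the liver (median -1.42). The liver signal was well above background on 1 of 12 arrays, in the HF-low-suf group, and on no HF-low-low array. In HF-low-low mice the colon level of Ier3 was at least 1.68-fold the liver level, from mean log2 Cy3 signals of 9.29 in the colon and a floor of 8.54 in the liver, where the measured mean was 8.08. The fitted difference over both diets was -0.99 (SE 0.20, adjusted P = 0.000174 in limma), lower in the liver of 11 of 12 mice, and its size is not a measured level of the liver.

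Dusp1, the phosphatase that switches off p38, JNK and ERK kinases, was the 1 gene of the 10 called higher in the liver at an adjusted P below 0.05 in limma. It ranged from -0.83 to 0.44 in the colon (median -0.62) and from -0.70 to 0.71 in the liver (median -0.09). The ranges overlapped, and Dusp1 was higher in the liver of 11 of 12 mice by 0.47 (SE 0.13, adjusted P = 0.00531 in limma, exact P = 0.000977), or 1.38-fold. This call depended on the scaling, since median centring of the arrays gave 0.04 with an adjusted P of 0.923.

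Egr1, the immediate early zinc finger factor, had the widest liver range of the 10 genes, from -1.71 to 2.01 (median -0.41), against -0.87 to 1.4 in the colon (median -0.06). Its difference of -0.40 (SE 0.30, adjusted P = 0.356 in limma) was not called, with 9 of 12 mice lower in the liver. Egr2, known for its role in myelinating Schwann cells and in T cells, gave 0.10 (SE 0.21, adjusted P = 0.790 in limma). Atf3, a stress-responsive repressor, ranged from -1.19 to -0.24 in the colon and from -1.74 to -0.03 in the liver, and its difference of -0.32 (SE 0.18, adjusted P = 0.168 in limma) was not called. Under median centring Egr1 was called lower in the liver (-0.71) and so was Atf3 (-0.68).

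**Figure D2:**
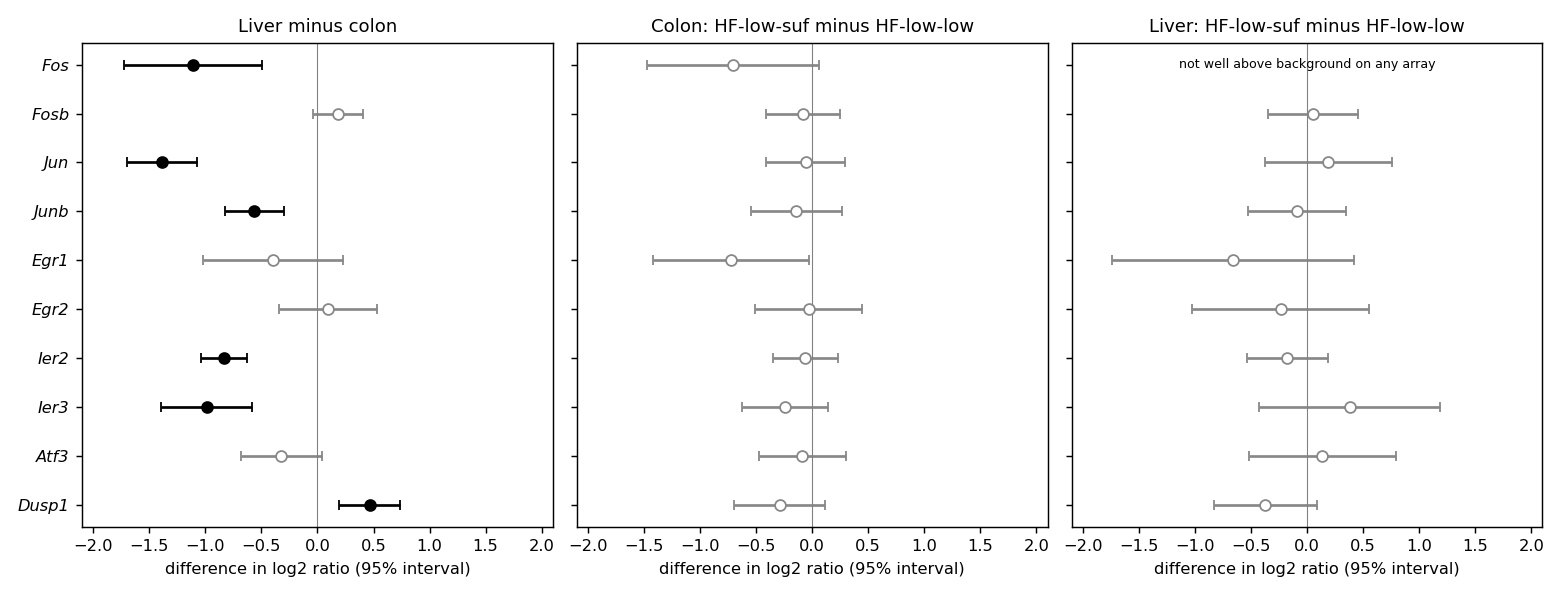
Log2 differences with 95% intervals for the 10 genes, for liver minus colon and for HF-low-suf minus HF-low-low in each tissue. Filled black points passed the threshold of that comparison. The point of Fos for the tissues is the fitted difference, with a dim liver signal. The 6 filled points all belong to liver minus colon, and the interval of Egr1 in the colon runs from -1.42 to -0.03.

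Related genes were described from lists around the pathway, to be read against the 19% of all probes that were lower in the liver and the 19.4% that were higher, and the 37.2% and 35.9% of the brighter probes. Of 15 other immediate early transcription factors, 9 were lower and 0 higher in the liver, and the median difference was -0.69 against 0.02 for all probes. Klf4, a factor of differentiated surface epithelium, was at -4.71, Klf6 at -2.35 and Srf, which binds the promoters of many of these genes, at -1.81. Fosl2, an AP-1 subunit, and the nuclear receptor Nr4a2, both counted among the 9, had no liver array with a signal well above background. Of 25 other immediate early effectors, 10 were lower and 5 higher in the liver with a median of -0.22. Ier5 (-1.48), the antiproliferative gene Btg2 (-1.38) and Gadd45a (-1.18), a DNA damage response gene, were lower, and the EGF receptor inhibitor Errfi1 (3.07) and the kinase Plk3 (1.98) were higher. Arc and the chemokine Cxcl1, counted among the 5, were well above background on at most 2 arrays of either tissue.

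Among 17 upstream kinases and promoter-bound factors, 6 were lower in the liver, with Mapk3, which encodes ERK1, at -2.05 and Rps6ka1 at -1.94, and 4 were higher, with Crem at 1.65. The median of these 17 was 0.01. Of 11 feedback phosphatases and corepressors, 4 were higher in the liver, among them the EGR corepressors Nab2 (1.13) and Nab1 (1.01) and the ERK phosphatase Dusp6 (1.05), and 2 were lower, with a median of 0.16. The lower pair had little or no liver signal, since Spry2 was well above background on 0 of 12 liver arrays and Dusp4 on 1, and no size is given for them. Of 6 heat shock genes 2 were higher and 1 lower, Hspa1a at -2.39, with a median of 0.32. All 9 hypoxia response genes differed, 5 higher and 4 lower in the liver, and they had a median of 0.40. Bnip3, a mitophagy receptor, was at 2.79 and Vegfa, an angiogenic growth factor, at 1.14, and Slc2a1, which encodes the glucose transporter GLUT1, at -1.78 and Hk2, a hexokinase, at -1.40.

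In the diet comparison within the colon, no member was called at the study's threshold, a fold change over 1.5 together with an unadjusted P under 0.01, which 0.168% of all probes passed. At an unadjusted P below 0.05 there was 1 member of 10, Egr1, against 2.98% of all probes. Egr1 had a lowest, median and highest value of -0.46, 0.65 and 1.4 in HF-low-low mice and of -0.87, -0.33 and 0.52 in HF-low-suf mice. The groups overlapped. The difference was -0.72 (SE 0.33, n = 6 and 6 mice, unadjusted P = 0.0420, adjusted P = 0.9999 in limma), and the exact permutation test over the mice gave P = 0.0974. Fos gave -0.71 (SE 0.36, unadjusted P = 0.0676 in limma, exact P = 0.139) with a 95% interval from -1.48 to 0.06. Dusp1 gave -0.29 (SE 0.19), Ier3 -0.24 (SE 0.18), and the other 6 genes between -0.14 and -0.03.

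Single colons moved these values. The Fos difference was -0.42 without HF-low-low replicate 4 and -0.91 without HF-low-low replicate 2, and the Dusp1 difference was -0.14 without HF-low-low replicate 6. Egr1 lay between -0.91, without HF-low-low replicate 2, and -0.54, without HF-low-low replicate 5, and no member was called when any 1 colon was left out. With the scan day as a block, a fit added after the values had been seen, Fos had SE 0.31 and Egr1 SE 0.32 (adjusted P = 0.9999 in limma for both), and 0 of 10 members were called where 0.274% of all probes were. In that fit 2 of 10 members had an unadjusted P below 0.05 in limma, as did 1393 of the 41174 probes. With the interaction of day and diet in the model as well, Egr1 passed the study's threshold at -0.72 (SE 0.23, unadjusted P = 0.00667, adjusted P = 0.9999 in limma), as the 1 called member of 10 where 0.33% of all probes were called, and Fos did not (SE 0.25, unadjusted P = 0.0143, adjusted P = 0.9999 in limma).

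The colon differences of Fos and Egr1 lay in the arrays of the later scan day. Among the HF-low-low colons Fos was -1.33, -1.74 and -1.42 in replicates 1 to 3 and 0.74, -0.52 and -0.09 in replicates 4 to 6. Among the HF-low-suf colons Fos was -1.10, -1.13 and -2.20 in replicates 1 to 3 and -1.81, -0.87 and -1.5 in replicates 4 to 6. HF-low-low replicates 4 to 6 stood above all other colons for Fos. Egr1 likewise was 1.02, 1.4 and 1.0 in those 3 colons and at most 0.52 in the other 9.

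On the arrays of the first day alone the Fos difference was 0.02 (SE 0.32) and the Egr1 difference 0.15 (SE 0.37), and 0 of 10 members were called where 0.675% of all probes were. On the later day alone Fos gave -1.44 (SE 0.33) and Egr1 -1.60 (SE 0.21, adjusted P = 0.421 in limma), and 2 of 10 members were called where 0.25% of all probes were. Each of these days holds 3 mice of each diet, for which an exact permutation test could not go below 0.1. A test of the diet difference between the days, added after the values had been seen, gave -1.76 for Egr1 (SE 0.46), -1.25 for Egr2 (SE 0.32) and -1.46 for Fos (SE 0.51), each with an adjusted P of 0.986 in limma. None of the 41174 probes passed adjustment for this term, and these 3 of 10 members had an unadjusted P below 0.05, as did 3.63% of all probes. What else differed between the mice of the scan days was not tested.

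In the liver 0 of 10 members were called between the diets at that threshold, which 0.117% of all probes passed, and 0 had an unadjusted P below 0.05 in limma, as 2.13% of all probes did. Dusp1 came nearest, at -0.37 (SE 0.22, unadjusted P = 0.107, exact permutation P = 0.136). Its values were -0.70, 0.30 and 0.71 for the lowest, median and highest of HF-low-low mice and -0.43, -0.20 and 0.16 for HF-low-suf mice, which overlapped. Egr1 gave -0.66 with a wide 95% interval from -1.74 to 0.42, and -0.27 without HF-low-low replicate 2. Jun gave 0.19 with an interval from -0.38 to 0.76. No diet difference is given for Fos in the liver, since both groups were dim there. The diet effect did not differ between liver and colon for any member after adjustment (0 of 10, with 0% of all probes called in limma), and 0 of 10 had an unadjusted P below 0.05 against 6.43% of all probes. The smallest P was that of Ier3, whose difference of 0.62 (SE 0.40, adjusted P = 0.854 in limma) rests on HF-low-low livers that were all dim.

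Among the listed related genes, none of 83 was called between the diets in the colon. Sgk, a serum and glucocorticoid regulated kinase, gave -0.47 (SE 0.21), Ier5 gave -0.37 (SE 0.18), and the Ras signal inhibitor Spry4, dim on all but 1 colon array, gave -0.37 (SE 0.17). In the liver Errfi1 was called, lower in HF-low-suf (-0.78, SE 0.23), without passing adjustment in limma, and the other 82 were not. Over all probes 0.117% were called there. The study lists Errfi1 as increased by supplementation, the opposite direction.

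The co-variation between arrays was then examined as a readout shared by the genes. Over the 12 colons, Fos was correlated with Atf3 (r = 0.86, rho = 0.92, adjusted permutation P of r = 0.00252), Egr1 (r = 0.82, rho = 0.88, adjusted P = 0.00603), Dusp1 (r = 0.75, rho = 0.79, adjusted P = 0.0450) and Egr2 (r = 0.69, adjusted permutation P = 0.0459). For Egr2 rho was 0.70, which missed the threshold (adjusted permutation P = 0.0628). Each P is from a permutation test of the arrays and was adjusted over 18 relations, 9 genes in each of 2 tissues. Arrays were permuted across scan days and diets, so a shift shared by the genes enters these P values. With day, diet and their interaction in the model, colon Fos was higher on the later day by 0.81 (SE 0.25, adjusted P = 0.584 in limma). Without HF-low-low replicates 4 and 6, the colons farthest from the median of Fos, r was 0.92 for Atf3, 0.80 for Egr1, 0.73 for Dusp1 and 0.55 for Egr2. Within the scan days r was 0.84 and 0.81 for Atf3, 0.90 and 0.78 for Egr1, 0.43 and 0.71 for Dusp1, and 0.31 and 0.82 for Egr2. Within HF-low-low and HF-low-suf mice r was 0.85 and 0.36 for Egr2 and 0.72 and 0.58 for Dusp1. Without the 2 arrays bright in Cy5, Dusp1 and Egr2 were not past the threshold, and with outlier spots kept Egr2 was not. Leaving out HF-low-low replicate 4 alone, Egr2 fell to 0.51 and was no longer past the threshold, and Egr1 (0.84), Dusp1 (0.84) and Atf3 (0.81) were.

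**Figure D3:**
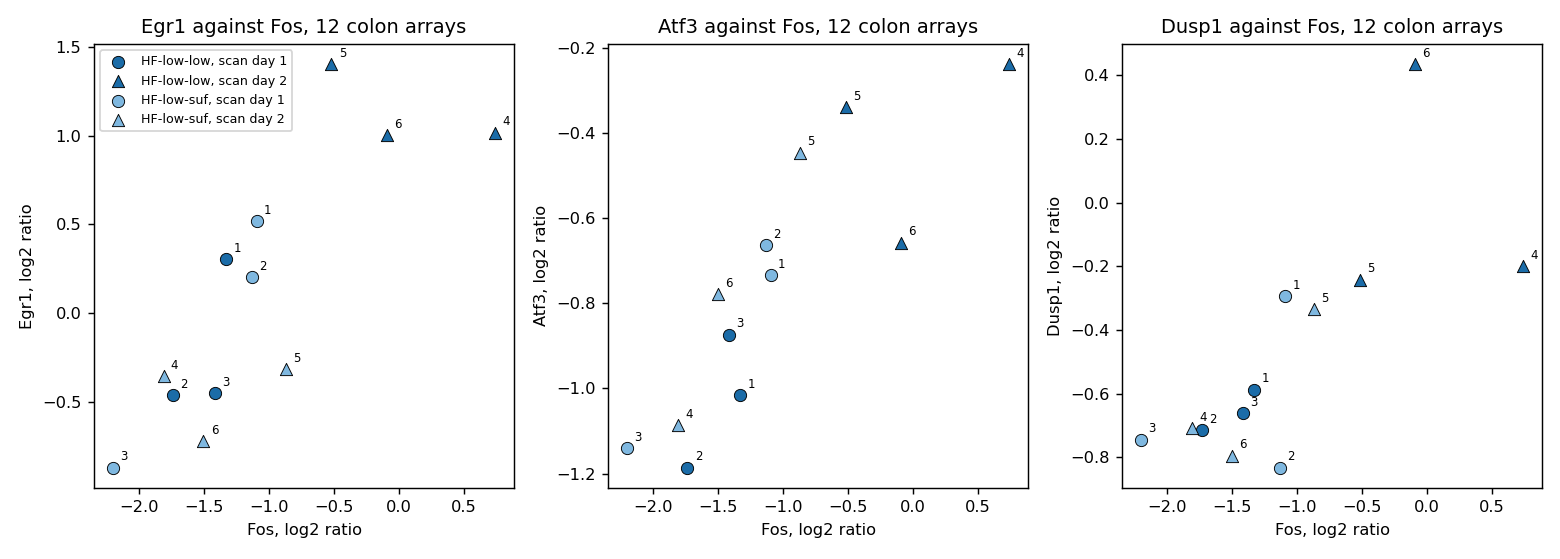
Log2 ratios of Egr1, Atf3 and Dusp1 against Fos over the 12 colon arrays, coloured by diet, with triangles for the later scan day. The 3 colons with the highest Fos, HF-low-low replicates 4 to 6, are at the right, with Egr1 between 1.0 and 1.4.

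The other genes were less tied to Fos in the colon. Junb had r = 0.61 (adjusted P = 0.109), Ier2 0.54, Fosb 0.49, Jun 0.37 and Ier3 0.31, none past the threshold. Within the scan days r was 0.64 and 0.59 for Junb, -0.16 and 0.50 for Ier2, and -0.46 and 0.80 for Fosb. It was -0.44 and 0.76 for Jun and -0.49 and 0.59 for Ier3. Without HF-low-low replicate 4 r was 0.32 for Junb, 0.46 for Ier2, 0.06 for Fosb, 0.04 for Jun and -0.089 for Ier3. In the liver Atf3 alone passed, with r = 0.70, an adjusted permutation P of 0.0459, rho = 0.65 (adjusted permutation P of rho = 0.0964) and r = 0.67 without the 2 farthest arrays, on a Fos signal that was dim throughout. It was not past the threshold with outlier spots kept or without the 2 arrays bright in Cy5. Among 13787 colon probes that were bright on all 12 arrays, 4.45% had r of at least 0.5 with Fos, and 0.102% had a higher r than Egr1 and 0.0218% a higher r than Atf3. Bright probes most like Fos in the colon included Hbegf, a ligand of the EGF receptor that is itself an early response gene (r = 0.86), and those of the defensins Defcr23 (0.87) and Defcr6 (0.86), which Paneth cells of the small intestine secrete. These likenesses leaned on HF-low-low replicate 4, where Defcr23 was -3.25 against -6.04 to -4.71 on the other 11 colon arrays and Hbegf was 0.51 against -1.45 to -0.19. Without that array r was 0.74 for Hbegf, 0.74 for Defcr23 and 0.70 for Defcr6.

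All pairs of the 10 genes gave a median r of 0.37 in the colon, where 16 of 45 pairs (35.6%) exceeded 0.5 against 13.1% of pairs of probes bright on every colon array, whose median was 0.004. The 7 genes that were themselves bright on every colon array had 8 of 21 pairs (38.1%) above 0.5 and a median of 0.34. The points of each pair share the 12 arrays and the reference pool. The colon median was -0.14 on the first scan day alone and 0.52 on the later one, and it fell to 0.14 without HF-low-low replicate 4. In the liver the median was 0.35, with 17 of 45 pairs (37.8%) above 0.5 against 13.2% of pairs of bright probes, and 16 pairs were below 0. Liver values reached from -0.71 to 0.81. The 3 genes that were bright on every liver array, Junb, Ier2 and Dusp1, had 3 of 3 pairs above 0.5 and a median of 0.80.

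**Figure D4:**
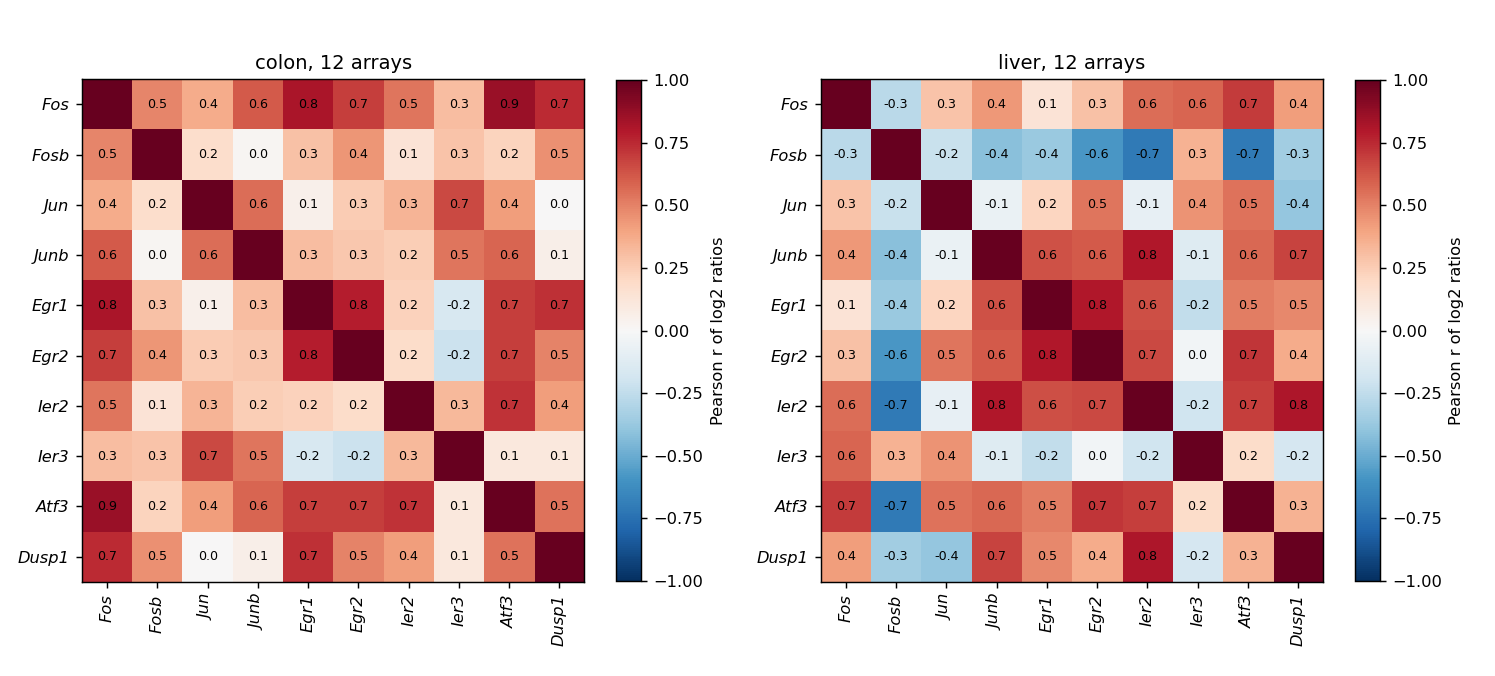
Pearson r of every pair of the 10 genes over 12 colon arrays and over 12 liver arrays. In the colon the high values gather around Fos, Egr1, Egr2, Atf3 and Dusp1, and in the liver around Junb, Egr1, Egr2, Ier2 and Atf3, while 16 of 45 liver pairs are below 0.

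Liver HF-low-low replicate 2 had the highest Egr1 (2.01), Egr2 (1.73) and Atf3 (-0.03) of the 12 livers, and its Jun (-0.23) was the highest too, while its Fos was not well above background. In that mouse the colon values were -0.46 for Egr1 and -1.19 for Atf3, the lowest Atf3 of the 12 colons. Liver HF-low-suf replicate 1 was the highest of its group for Egr1 (0.46), Egr2 (0.13), Jun (-0.30) and Atf3 (-0.53). The mean of 7 adipose markers was 2.75 on that array and -1.74 to -0.069 in the other 11 livers, and its part in these values was not tested. The mean of 8 leukocyte markers was also highest in liver HF-low-low replicate 2, at 0.69, followed by liver HF-low-suf replicate 1 at 0.43, liver HF-low-low replicate 4 at 0.41 and the other 9 livers at -0.27 to 0.21, and its part was likewise not tested. On liver HF-low-suf replicate 4, 8.75% of spots were marked as outliers, against at most 0.768% on the other arrays.

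Between the colon and the liver of the same mouse 0 of 10 genes passed adjustment over 10 relations. The nearest was Dusp1 (r = 0.64, rho = 0.65, permutation P = 0.0207, adjusted P = 0.207), whose r was 0.36 without the 2 mice farthest from the median. Fos gave r = 0.03 and Egr1 r = -0.06.

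Fos of the liver had a ratio that moved where its own signal hardly did. The log2 ratio ranged over 2.58 units across the 12 livers, while the log2 signal of Cy3 normalised alone ranged from 6.79 to 7.67, against 8.0 to 10.4 in the colon. These signals are on another scale than those behind the bound of Fos, and the values cannot be set against each other. Relations of Fos to the means of the marker and pathway lists and to 4 measures of the array were examined after the values had been seen. The ratio followed the mean of 7 colon epithelium markers over the livers (r = 0.94, rho = 0.88, adjusted permutation P = 0.00036 over 36 relations, r = 0.85 without the 2 farthest arrays, and 0.86 and 0.98 within the scan days). The 1 other of the 36 relations to pass was with the mean of 15 other immediate early transcription factors (liver r = 0.80, adjusted permutation P = 0.0419, and rho = 0.76 with an adjusted permutation P of 0.0634). Those markers were at a mean of -4.45 to -3.15 in the livers and of 0.16 to 0.81 in the colons. The Cy3 signal alone of Fos had r = -0.05 (permutation P = 0.876) with them. The Fos ratio was highest in HF-low-suf replicates 4 and 5 and HF-low-low replicate 6, at -0.63, -1.14 and -0.77. The log2 Cy3 signals of Fos on these arrays were 7.01, 7.37 and 7.32. Its highest Cy3 signal, 7.67, was in liver HF-low-low replicate 2, and all of these signals were dim. Neither relation was past the threshold with plain background subtraction, with no correction, with the processed signals, with median centring or in Cy3 alone. In each relation both values are ratios to the Cy5 channel of the same array, which a permutation of arrays does not separate. These P values are therefore no measure of co-variation in Fos mRNA, and the part of the Cy5 reference was not tested. The time from death to preservation of each tissue is not given in the sources used here, and its part in any of these co-variations was not tested.

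**Figure D5:**
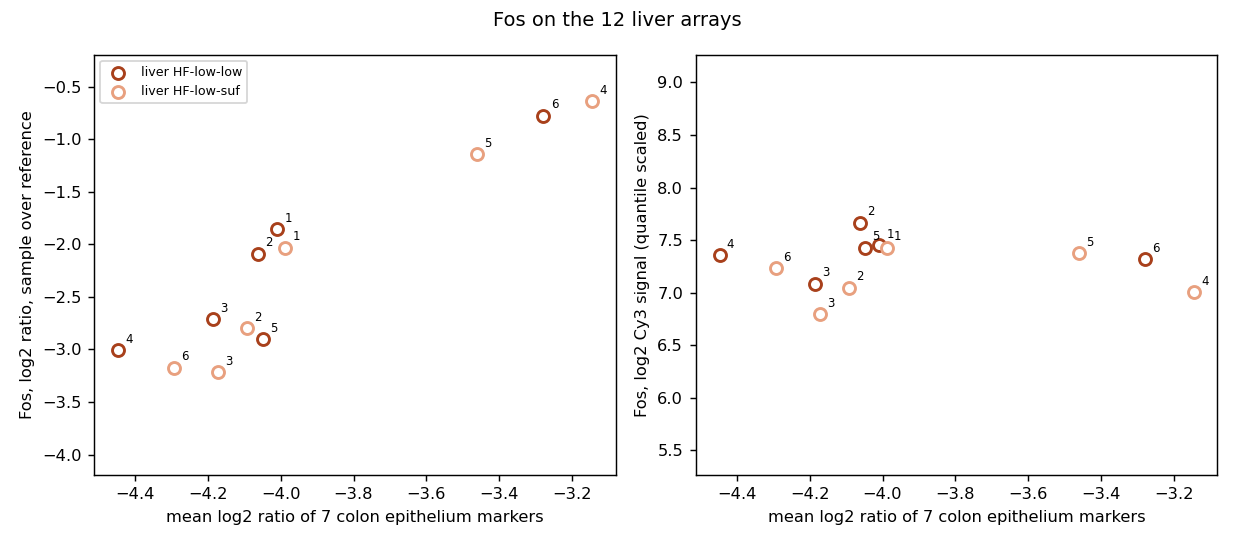
Fos on the 12 liver arrays against the mean log2 ratio of 7 colon epithelium markers, for the log2 ratio of Cy3 to Cy5 and for the log2 Cy3 signal alone. The ratio rises with the markers (r = 0.94) and the Cy3 signal does not (r = -0.05).

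Among the bright liver probes, 13.4% of 9661 had r of at least 0.5 with the Fos ratio, and the 5 most like it were Akr1c21, Clca3, Clca6, Mxd1 and Cdca8 (r from 0.97 to 0.98). Clca3, a goblet cell product, lay between -7.99 and -6.37 in the livers and between -1.19 and -0.03 in the colons.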

How the data were processed

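RNA of colon and liver of 12 mice was measured on 24 two-colour Agilent arrays, 1 tissue of 1 mouse each, and samples were grouped by tissue and diet from the labels. The authors deposited intensity values of 45018 spots per array, read from the scans with Feature Extraction 9.5, as mean signals and median local backgrounds that were not yet normalised between dyes or arrays. From these, backgrounds were corrected with normexp (offset 50). Then 1639 control spots and spots marked as outliers were left out and each array was loess normalised in limma 3.58.1 on R 4.3.3. Repeated spots were averaged, which turned 43379 spots into 41174 probes.

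Diets were compared in each tissue with lmFit and eBayes on its 12 arrays, at the threshold of the study's methods (a fold change of 1.5 with an unadjusted P of 0.01). Tissues, and the diet effect between tissues, were compared on 24 arrays with a random block for the mouse (duplicateCorrelation, statmod 1.5.0, correlation 0.158) and Benjamini-Hochberg adjustment at 0.05. For single genes, exact permutation tests (two-sided) ran over 924 assignments of mice for diet and 4096 sign flips for tissue. Correlations used 100000 resamples. In the labels a replicate number of a diet marks the same mouse in colon and liver, and the number also marks the slide. Deviations of the same mouse correlated with a median of 0.12 in HF-low-low and 0.13 in HF-low-suf mice. Different mice with the same replicate number, which share the slide, had medians from -0.085 between livers to 0.21 between colons. These values alone therefore do not show the pairing of tissues by mouse. Where a probe was dim on every array of a group, the bound compares mean log2 Cy3 signals after loess and Aquantile scaling with a floor. On each dim array the floor is the lowest signal well above background, or the probe's own signal where that was higher. The mean of the brighter tissue includes its arrays that were not well above background. Without dye swaps this bound is open to dye bias.

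All 10 genes are named. From each list the names are drawn from at most 4 genes in each direction that were past the test, by size, or from the 2 with the smallest P where none was. Named too are bright probes among the 5 most correlated with Fos in each tissue, of which some are not reported here. The members, lists and related choices were made with earlier results of these data known. Gene names are those of the array, probe positions are in build mm7, and promoters come from RefSeq. Processing was varied by subtracting the background plainly or not at all, and by using the processed signals, median centring, Cy3 alone, outlier spots kept, the mean over the probes of a gene, a filter on dim probes, blocks for slide and mouse, 1 fit of all arrays, scan days apart, leaving out the 2 arrays bright in Cy5 and leaving out each array in turn. Leaving colon HF-low-low replicate 4 out of the tissue and correlation results, relating Fos to marker lists, the scan day as a block and the diet difference between scan days were added after seeing the data. The tests were tested on simulated data. Precision is limited by the number of arrays.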

Additional observations from a re-analysis of the deposited data

Results flagged for a closer look

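In 4 of 48 combinations of a probe and a group of 6 arrays, the highest array stood further from its neighbours than Dixon's 95% critical value allows, a distance that chance gives in about 1 in 20 groups. Egr2 had a log2 ratio of 1.73 in liver HF-low-low replicate 2 against -0.03 for the next liver of the group. Egr1 was also highest in that liver, at 2.01. Junb had 0.14 in colon HF-low-low replicate 4 against -0.51 for the next colon, and its other probe had 0.53 against -0.20. That colon also had the highest Fos (0.74), Jun (0.90) and Fosb (0.25) of the 12 colons. Fosb had 0.056 in colon HF-low-suf replicate 3 against -0.26 for the next colon, without being well above background there. Causes of these values were not tested.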

How the results depend on the processing

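The count of 6 genes called between the tissues was 3 on scan day 2 alone, where Fos (adjusted P = 0.0653 in limma), Ier3 and Dusp1 missed the threshold, 5 on scan day 1 alone, 5 with the mean over the probes of a gene, 5 of 7 tested with the filter on dim probes (73% of all probes left were called), 6 with outlier spots kept and without the 2 arrays bright in Cy5, and 7 with plain subtraction, no correction, the processed signals, median centring and Cy3 alone. Over all probes the calls were 7971 higher and 7812 lower in the liver, 4521 and 9226 under median centring and 7573 and 11964 with the processed signals. The processed signals moved the median of all probes to -0.19. Between the diets of the colon, 2 genes were called on scan day 2 alone, 1 with the day and its interaction with diet in the model and 0 with the day as a block, and 1 gene passed the exact permutation test in Cy3 alone. With the replicate number as a block, 0 of 10 genes were called in either tissue, while the probes called over the array went from 69 to 92 in the colon and from 48 to 131 in the liver. Blocks for slide or mouse left 6 genes called between the tissues, as did no block.

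The count of 5 relations with Fos was 3 with outlier spots kept (Egr2 in the colon and Atf3 in the liver lost), 2 without the 2 arrays bright in Cy5 (Dusp1 in the colon lost too) and 3 without colon HF-low-low replicate 4, where r of Fos with Ier3 in the colon was -0.089. Of the 2 relations lost there, Atf3 in the liver kept r = 0.70, since no liver array was left out, and moved through the adjustment over 18 relations alone. Of the 10 relations between the tissues of a mouse, 3 passed under median centring and 1 in Cy3 alone. The median r of pairs was -0.14 in the colon on scan day 1. In the liver it was 0.17 with the processed signals, 0.24 in Cy3, 0.49 on scan day 1 and 0.49 on day 2. Leaving out each array in turn gave 0.143 to 0.477 in the colon and 0.300 to 0.390 in the liver.

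Signs of values that were not called turned, among others, as follows. Within scan day 1 r of Fos in the colon was -0.46 with Fosb, -0.44 with Jun, -0.16 with Ier2 and -0.49 with Ier3. In the liver on that day r of Fos with Ier3 was -0.74. On scan day 1 the colon diet differences were 0.18 for Atf3, 0.031 for Dusp1, 0.15 for Egr1, 0.59 for Egr2, 0.019 for Fos and 0.17 for Fosb, the diet effect between tissues was -0.26 for Atf3 and -1.03 for Egr1, and Egr1 between tissues was 0.055. On day 2 the diet effect between tissues was 0.76 for Egr2. With the processed signals Egr2 between tissues was -0.17, the colon diet difference of Fosb 0.24 and its diet effect between tissues -0.22, and r was -0.078 for Fos with Jun and -0.17 for Fos with Dusp1 in the liver and -0.34 for Ier3 between tissues. With plain subtraction Fosb was -0.10 for the diet effect between tissues and -0.18 for the liver diet difference, which was -0.17 in Cy3. The colon diet difference of Ier2 was 0.10 under median centring and 0.29 as the mean of its probes. In the liver, r of Fos with Ier3 was -0.35 with plain subtraction, -0.17 with no correction and -0.65 in Cy3. Between the tissues of a mouse, r of Fos was -0.29 with plain subtraction and -0.35 with no correction, and r of Jun 0.064 in Cy3. Under median centring r of Fos with Fosb in the liver was 0.52, and r between tissues was -0.24 for Fosb, 0.75 for Ier2 and 0.11 for Atf3. Leaving out 1 array turned the diet differences in the colon of Atf3 (-0.18 to 0.0063), Egr2 (-0.18 to 0.11), Fosb (-0.15 to 0.0068) and Jun (-0.12 to 0.030) and in the liver of Egr2 (-0.38 to 0.13), Fosb (-0.070 to 0.15) and Junb (-0.19 to 0.010). The causes of these changes were not tested. Signals near background limit Fos and Ier3 in the liver and Fosb and Egr2 in both tissues.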
